A study of Danio rerio with 18 samples.

Results

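The change in gene expression over the second day of development was measured in whole zebrafish embryos kept in a suspension of MES gold nanoparticles. The 6 arrays with this label, of 18 in the study, were taken from the labels of agent and stage: 3 pools of embryos at 24 and 3 at 48 hours post fertilization (hpf). MES is mercaptoethanesulfonate, a negatively charged ligand on a gold core of 1.5 nm, and the dose was 50 µg/mL. Vehicle controls, and embryos given TMAT particles at 10 µg/mL, whose ligand trimethylammoniumethanethiol is positively charged on a core of the same size, were also collected at 24 and 48 hpf with 3 arrays per group. What all groups shared was removal of the chorion at 4 hpf, exposure from 6 hpf until collection, a temperature that the labels give as 37 °C, and pools of 40 embryos. The sources used here do not give a strain or say whether pools came from separate clutches, so every p-value measures the spread between these pools, which may be technical. A whole-embryo pool holds all tissues, and in such samples fewer cells of a type and less RNA per cell cannot be told apart.

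Between these ages a zebrafish embryo passes from the end of somite formation to shortly before hatching. Lens fibre cells fill with crystallins, retinal neurons and photoreceptors begin to differentiate, neurons form synapses, and skeletal muscle takes on its mature contractile proteins. Patterning genes of the early embryo, and the machinery of cell division in tissues that stop proliferating, are known to decline over the same period.

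Each array reported a background-corrected and normalized intensity for 37105 features, given here as log2 values. The median intensity of the 6 MES arrays lay between 1963 and 2071. Random-sequence probes, a measure of background, read 91.7 to 93.8 at 24 hpf and 78.8 to 80.3 at 48 hpf, a difference of -0.21 on the log2 scale (exact permutation test, two-sided p = 0.1, the smallest that 3 against 3 arrays allow). The highest feature of any MES array stood at 15.93, and among the 1518 features with a mean level over 15 the standard deviation of the change between ages was 0.32, against 0.91 over all features. Only 2659 features, for 2646 genes, carried an identifier that leads to a current gene symbol, so counts are of features and named genes come from that small part. Replicates varied less under MES (median SD 0.25 at 24 hpf and 0.21 at 48 hpf) than in controls (0.48 and 0.42). Those under TMAT lay between (0.33 and 0.25).

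Under MES particles 15575 of 37105 features (42.0%) differed between 48 and 24 hpf at an adjusted p under 0.05 in limma. This linear model draws each feature's variance estimate toward a value common to all features. Higher at 48 hpf were 7715 called features (20.8% of all), and 7860 (21.2%) were lower. Of all features, 8674 (23.4%) were called with a change of at least 1 log2 unit, and the 3 and 3 values of 20579 (55.5%) did not overlap. Large changes were mostly rises: 777 called features were higher by at least 2 log2 units and 347 were lower by as much. The median change over all features was -0.04 and its median standard error 0.215. Counted once per gene symbol, 504 of 2646 genes (19%) were higher and 604 (22.8%) lower, with a median change of -0.11; these shares are the background against which the gene lists below are read.

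The 15 largest rises among genes with an informative symbol were led by ampd1, the AMP deaminase of skeletal muscle. Its log2 intensity was 8.1, 8.09 and 8.63 at 24 hpf and 15.05, 14.88 and 15.08 at 48 hpf, a rise of 6.73 ± 0.2 (SE) or 106-fold (limma adjusted p = 9.87e-06). Gamma M2 crystallins, structural proteins of the fish lens, made up 7 of the 15. The others were tnni2b.2, a fast-muscle troponin I that inhibits contraction in the absence of calcium, capn3a, a calpain protease of muscle, rs1a, a retinoschisin secreted in the retina, syt5b, a synaptotagmin of synaptic vesicles, matn3a, a matrilin of cartilage matrix, lim2.5, a membrane protein of lens fibres, and fgfbp2b, a secreted protein that binds fibroblast growth factors. The smallest of the 15 rises was 3.87 ± 0.17 for crygm2d3. Every one of the 15 was also higher at 48 hpf in the other agents' arrays, with adjusted p under 0.05 for 14 in controls and 15 under TMAT.

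Over all features, 18 were called lower by at least 4 log2 units and 48 higher by as much. The deepest of those falls (-5.27 ± 0.17, 38.7-fold lower) was in a feature without a gene symbol. That feature changed by -5.14 in controls and by -5.67 under TMAT. Among genes chosen by the same rule as the rises, the 15 largest falls were smaller than the 15 largest rises, from 3.48 to 1.99 log2 units. The largest was that of smtnl1, a smoothelin-like muscle protein, whose log2 intensity was 13.75, 13.88 and 13.71 at 24 hpf and 10.11, 10.25 and 10.55 at 48 hpf, a change of -3.48 ± 0.18 or 11.2-fold lower. It was followed by prtga, a protogenin of the early embryo's mesoderm and neural tube (-3.46 ± 0.2), and oc90, an otoconin of the otolith matrix (-3.2 ± 0.17). The remaining falls belonged to her3, a hairy-related repressor (-2.94), wfikkn1, a secreted inhibitor of myostatin (-2.58), and blf, a zinc-finger protein of the blood lineage in zebrafish (-2.22), besides the replication proteins gins3 (-2.17) and rfc2 (-2.06). Genes of other functions were tgm1l4 (a transglutaminase, -2.32), tm6sf2a (-2.3), exosc4 (a subunit of the RNA exosome, -2.25), mmp30 (a matrix metalloproteinase, -2.17), hjv (hemojuvelin, a BMP co-receptor, -2.09), poglut1 (a glycosyltransferase that modifies Notch, -2.05) and cldn5a (a tight-junction claudin, -1.99). Adjusted p lay between 4.29e-05 and 0.00194, and all 15 were lower at 48 hpf in controls and under TMAT as well, with a call for 11 in controls and 15 under TMAT.

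**Figure D1:**
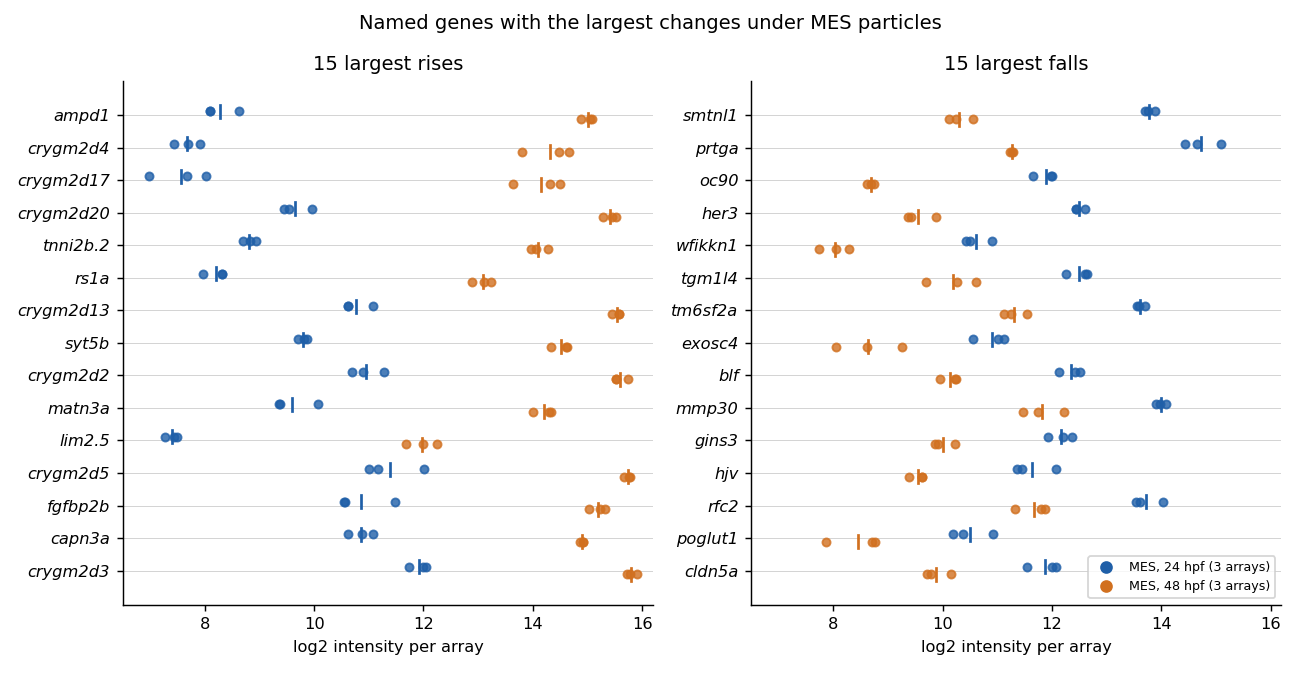
Log2 intensity of each of the 3 MES arrays at 24 hpf (blue) and 48 hpf (orange) for the 15 named genes with the largest rises (left) and the 15 with the largest falls (right); short vertical bars are group means. Only genes whose values do not overlap between the 2 ages could be picked, so that separation follows from the selection. Crystallins such as crygm2d3 (15.73 to 15.9 at 48 hpf) end close to the highest value of the arrays (15.93).

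Lens genes had the highest median change of the 41 gene lists. Of 25 measured genes, 22 were higher at 48 hpf, 1 was lower and 2 were not called, and the median change was 2.74. In crygm2d4 the log2 intensity was 7.69, 7.43 and 7.92 at 24 hpf and 14.66, 14.47 and 13.81 at 48 hpf, a rise of 6.63 ± 0.26 or 99.3-fold. For crygm2d17 the values were 6.97, 8.02 and 7.68 and then 14.49, 14.31 and 13.64 (6.59 ± 0.33). At 24 hpf both genes stood little above the random probes, whose mean was 6.53 on the same scale. Others of the family began higher: crygm2d20 went from 9.54, 9.44 and 9.96 to 15.52, 15.44 and 15.29 (5.77 ± 0.19), and crygm2d3 from 11.74, 12 and 12.04 to 15.9, 15.73 and 15.77 (3.87 ± 0.17). The 48 hpf levels of these 2 genes lie close to the highest value of the arrays, 15.93.

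Among other gamma M2 crystallins the changes were 4.77 for crygm2d13, 4.64 for crygm2d2, 4.34 for crygm2d5 and 3.27 for crygm2d7. The table of current genes places all 21 crygm2d genes on 1 chromosome with no other protein-coding gene between them, and 8 of the 21 were measured here. As members of a single family they may be similar in sequence. The probes' sequences were not used here, so signal could be shared among them. Beta crystallins, a separate family of lens structural proteins, changed by 2.94 for cryba2b, 2.69 for cryba1l1, 1.57 for cryba2a and 1.15 for crybb1, all called higher. Membrane proteins of the lens fibre rose as well, mipa, an aquaporin, by 1.33 and lim2.5 from 7.28, 7.43 and 7.49 to 11.99, 11.68 and 12.25 (4.57 ± 0.19). Against this, foxe3, a transcription factor that keeps the lens epithelium proliferating in vertebrates, was lower at 48 hpf by 1.39 log2 units and was the only lens gene that fell. The small heat-shock protein cryabb (0.64) and crygn1 (0.36) were not called.

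Of 11 photoreceptor and retina genes 8 were higher and none lower, with a median change of 1.09. The largest rise was that of rs1a, whose log2 intensity went from 8.31, 7.96 and 8.32 to 13.11, 12.89 and 13.24 (4.89 ± 0.19, adjusted p = 1.32e-05). Arrestins, which end the response of the visual pigments to light, rose from 8.62, 7.77 and 8.35 to 11.19, 11.19 and 11.76 for sagb (3.14 ± 0.27) and by 1.63 ± 0.18 for saga. Bhlhe23, a transcription factor of retinal bipolar and other neurons, was higher by 3.0 ± 0.33, and pde6hb, an inhibitory subunit of the cone phosphodiesterase, by 1.99 ± 0.24. The visual kinase grk7b (0.11) and guca1g, a guanylate cyclase activator (-0.33), did not pass the test, and the latter marks the low end of the range.

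Neuronal and synaptic genes moved upward nearly throughout: 25 of 30 measured genes were higher, 2 lower and 3 not called, with a median change of 1.35. Vesicle proteins included syt5b, with 9.71, 9.87 and 9.82 at 24 hpf and 14.6, 14.34 and 14.63 at 48 hpf (4.72 ± 0.16), and syn2a, a synapsin that tethers vesicles (2.02 ± 0.18). Among receptors, gria4b, a subunit of an AMPA glutamate receptor, rose by 1.84 ± 0.17. Inhibitory transmission was represented by slc32a1, which loads GABA and glycine into vesicles (1.85 ± 0.17), and slc6a5, the neuronal glycine transporter (2.01 ± 0.24). The adhesion protein nrxn3b, a neurexin, rose by 2.28 ± 0.18, the sodium channel subunit scn4ba by 2.47 ± 0.17, and the secretogranin scg2b by 1.73 ± 0.15. The 2 genes that fell were chrnd (-1.02), a subunit of the acetylcholine receptor of muscle, and gad3 (-0.82), a glutamate decarboxylase; 1 member was lower without the first or the third array of 24 hpf or the first or second of 48 hpf.

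Ion channels, which overlap that list, had 13 of 31 members higher and 3 lower (median 0.53). The potassium channel kcnc2 rose from 9.86, 9.42 and 9.93 to 11.41, 11.62 and 11.34 (1.72 ± 0.2), and the proton-gated channel asic1b by 1.6 ± 0.21. Those that fell were kcnj11 (-0.93), trpv6 (-0.84) and kcnk6 (-0.68); 1 member was lower without the second MES array of 48 hpf, and 5 were without the third of 24 hpf. Axon guidance and neural adhesion genes were mixed, with 5 of 20 higher and 2 lower (median 0.38). The adhesion molecule dscama rose from 10.23, 10.09 and 10.31 to 11.94, 11.93 and 11.92 (1.72 ± 0.15) and the contactin cntn4 by 1.73 ± 0.27. A semaphorin, sema6d, fell from 10.07, 10.67 and 10.14 to 8.4, 8.92 and 8.82 (-1.58 ± 0.23), as did slit1a, a repulsive guidance ligand (-1.25). In this list 1 member was lower without the first or second array of 24 hpf or the second of 48 hpf.

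Of the peptide hormones and their receptors, 3 of 14 were higher (21.4%, beside 19% of named genes) and 1 lower (7.14%, beside 22.8%). Their median change was 0.42. Prodynorphin, pdyn, the precursor of opioid peptides, rose by more than the spread between arrays, from at most 8.96 to at least 10.01 (1.42 ± 0.19, adjusted p = 0.0015). The calls of npffl (1.55, adjusted p = 0.0332), adcyap1r1a (1.01, adjusted p = 0.037) and ghrh (-0.6, adjusted p = 0.016) were each lost on leaving out single arrays: without the first array of 24 hpf 1 rise was called, and no fall was without the second of 24 hpf or the first of 48 hpf. In glia, fabp7a, a fatty-acid-binding protein of radial glia measured by 2 probes, rose by 2.16 ± 0.27 and olig1, a factor of the oligodendrocyte lineage, by 1.63 ± 0.21, while cldn19 (0.51) and erbb3b (0.01) were not called.

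Genes of neural progenitors and the Notch pathway went the other way, with 6 of 11 lower and 3 higher (median -0.83). In the control arrays the median of this list had the opposite sign (0.34), and under TMAT it was -0.54. Over all features the median standard error of a change was 0.411 in controls, against 0.215 under MES. No gene with a symbol was called in the test of the difference from controls, given below. The median does not describe each member, as her3 changed by -2.86 in controls. The repressor her3 fell from 12.44, 12.45 and 12.61 to 9.37, 9.43 and 9.88 (-2.94 ± 0.19), and her12, another hairy-related gene, by 1.57 ± 0.27 on the log2 scale. The neural stem-cell genes msi1a, an RNA-binding protein, and sox19b, a SoxB1 factor, were each lower by 1.32 ± 0.19. Of the 3 that rose, pou4f3 is a factor of differentiating sensory neurons and hair cells and not of progenitors; it went from 7.92, 7.57 and 8.26 to 9.54, 10.3 and 9.98 (2.02 ± 0.26). The others were ebf3a (0.99), a factor of neuronal differentiation, and hes2.2 (0.83).

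Early patterning and somite genes were lower in 9 of 21 cases and higher in 1 (median -0.42). Here too the control median had the opposite sign (0.29), and the TMAT median was -0.39. The larger standard error of control changes applies to this list as well, and no member was called in the test of the difference. The gene with the list's largest fall under MES, prtga, changed by -2.98 in controls. The log2 intensity of prtga was at least 14.44 in each array of 24 hpf and at most 11.29 in each of 48 hpf (-3.46 ± 0.2). Ripply1, which ends the segmentation program in newly formed somites, fell from 9.06, 9.2 and 9.64 to 7.67, 7.46 and 7.85 (-1.64 ± 0.21), and cyp26c1, an enzyme that degrades retinoic acid, from 13.11, 13.06 and 12.63 to 11.03, 11.16 and 11.67 (-1.65 ± 0.23). Ligands and their regulators that were lower included wnt4 (-1.04 ± 0.17), fstl1a (-0.96 ± 0.17), fstb, a follistatin that binds activins (-0.78 ± 0.19), and wnt3a (-1.66 ± 0.41). The 24 hpf values of wnt3a ran from 9.41 to 11.14 and its call was lost without the second of those arrays. Only cdx1b, a caudal homeobox gene also used in the gut, was called higher (0.91 ± 0.21), against 3 members without the third array of 24 hpf or the second of 48 hpf. The single Hox gene measured, hoxc13b, fell from 9.71, 9.61 and 10.09 to 8.45, 8.36 and 8.52 (-1.36 ± 0.18).

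Skeletal muscle genes split, with 13 of 42 higher (31.0%, beside 19% of named genes), 9 lower (21.4%, beside 22.8%) and 20 not called. Their median change was 0.17. Those that rose included contractile and metabolic proteins of differentiated fibres. Tnni2b.2 went from 8.82, 8.93 and 8.69 to 14.27, 14.06 and 13.97 (5.29 ± 0.17), capn3a from 10.88, 10.62 and 11.07 to 14.86, 14.92 and 14.92 (4.04 ± 0.17), and the myosin-binding protein mybpc1 from 8.95, 8.72 and 8.96 to 10.33, 10.36 and 10.42 (1.49 ± 0.16). Hspb2, a small heat-shock protein of muscle, rose by 1.53 ± 0.16, and casq1a and casq1b, calsequestrins that store calcium, by 1.36 and 1.21.

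The muscle genes that fell included an early regulator of the fibre program. Smyd1b, a methyltransferase that muscle fibres need for myosin assembly in zebrafish, was lower by 1.42 log2 units, and vgll2a, a co-factor of muscle transcription, by 1.82. Wfikkn1 fell from 10.5, 10.43 and 10.91 to 8.29, 8.06 and 7.74 (-2.58 ± 0.22) and dhrs7ca, a short-chain dehydrogenase, from 13.02, 13.02 and 13.13 to 10.97, 11.43 and 11.04 (-1.91 ± 0.18). Abundant sarcomere genes such as acta1b (0.18), mylpfb (0.37) and tpm2 (-0.21) were not called. The slow-type troponin I tnni1b was lower (-0.96), whereas the fast-type copies tnni2a.3 (1.27) and tnni2a.1 (0.74) were higher.

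Heart and smooth muscle genes had 2 of 7 higher (28.6%, beside 19% of named genes) and 2 lower (28.6%, beside 22.8%). Acta2, the smooth-muscle actin, rose from 10.43, 11.06 and 11.61 to 13.52, 13.56 and 12.28 (2.09 ± 0.42), and the troponin tnni4a by 1.21 ± 0.25. Myh6, the atrial myosin heavy chain, fell from 11.87, 11.51 and 11.07 to 9.88, 10.46 and 10.36 (-1.25 ± 0.26, adjusted p = 0.00722). In controls the same gene differed by 0.06 between the ages and under TMAT by -1.47; the difference between the MES and control changes was -1.31 ± 0.56 with an adjusted p of 0.272. The fall of has2, a hyaluronan synthase (-0.66), was lost without any of the first or second arrays of either age.

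Cell cycle and replication genes were lower in 9 of 14 cases and higher in none, with the lowest median of the larger lists (-1.12). Replication factors led the list. Mcm10, which helps to activate the replicative helicase, fell from 12.94, 12.7 and 12.75 to 10.7, 11.06 and 10.89 (-1.91 ± 0.17), and rfc2, of the clamp loader, from 13.62, 13.53 and 14.03 to 11.8, 11.33 and 11.88 (-2.06 ± 0.22). Chaf1a, which deposits histones behind the fork, was lower by 1.41 ± 0.18 log2 units, and e2f3, a transcription factor of S-phase genes, by 1.33 ± 0.17. Mitotic genes were represented by the kinetochore protein cenpl (-1.66 ± 0.23), the regulator foxm1 (-1.14) and ube2c, which acts with the anaphase-promoting complex (-1.13 ± 0.17). The cyclins ccna2 (-0.24) and ccnd2a (-0.33) and the kinase cdk4 (0.53) were not called. Leaving out single arrays gave 9 to 10 lower members, and 1 higher without the third array of 24 hpf.

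Ribosome biogenesis and translation genes were lower in 19 of 41 cases and higher in 4 (median -0.57). The shared RNA polymerase subunit polr1d fell from 11.23, 11.38 and 11.32 to 9.58, 8.91 and 9.64 (-1.93 ± 0.22). Assembly factors fell too, among them emg1, a methyltransferase of the small subunit (-1.44 ± 0.19), ebna1bp2 (-1.24 ± 0.18) and nop10, of the pseudouridylation complex, from 15.13, 15.19 and 15.19 to 14.26, 13.97 and 14.2 (-1.03 ± 0.16). The cytosolic ribosomal proteins rpl37 (-0.42), rpl6 (-0.25), rpl27a (-0.11), rps20 (-0.05) and rps6 (0.03) were not called. Of the rises, eef1a1b, an elongation factor, was the largest (1.46 ± 0.18). The list was drawn by name pattern and also took in nol4lb (1.18, called), fbln1 (-0.67) and rps6ka3b (0.23), which are a transcription regulator, a matrix protein and a kinase. Without the second array of 48 hpf 12 members were lower, and 2 were higher without the first or second array of either age.

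Chromatin and splicing genes were lower in 8 of 28 cases (28.6%, beside 22.8% of named genes) and higher in 2 (7.14%, beside 19%). Their median change was -0.13. The splicing proteins snrpa1 (-1.1 ± 0.18) and snrpb (-1.1) and the RNA helicase ddx52 (-0.99 ± 0.17) fell. An architectural chromatin protein, hmga1b, rose from 11.29, 11.67 and 11.48 to 13.15, 12.96 and 12.77 (1.48 ± 0.18). Leaving out single arrays gave 1 to 5 higher and 5 to 9 lower members here; 5 were higher without the third array of 24 hpf, and 5 were lower without the first of 24 hpf or the first or second of 48 hpf. Mitochondrial genes were lower in 12 of 35 cases (34.3%, beside 22.8% of named genes) and higher in 4 (11.4%, beside 19%), with a median of -0.19. Carriers and import proteins led, with slc25a40 at -1.29 ± 0.18, timm10b at -1.27 ± 0.21 and tomm20a at -1.14 ± 0.2, whereas the respiratory subunit cox5b2 rose from 7.47, 7.98 and 7.89 to 8.81, 8.76 and 8.79 (1.01 ± 0.18). Without the second array of 48 hpf 6 were lower and 2 higher; 2 were higher without the third of 48 hpf, and 1 without the first or second of 24 hpf or the first of 48 hpf. Of the protein degradation genes 5 of 61 were higher (8.2%, beside 19% of named genes) and 8 lower (13.1%, beside 22.8%), with ube2c lowest (-1.13) and the ubiquitin ligase marchf4a highest (1.55). There, 3 members were lower without the first array of either age, 5 without the second of 24 hpf and 4 without the second of 48 hpf.

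Red blood cell and haem genes were lower in 7 of 13 cases and higher in none (median -0.8). Blf fell from 12.13, 12.42 and 12.52 to 10.22, 9.95 and 10.24 (-2.22 ± 0.18), and the embryonic beta globin hbbe3 from 15.55, 15.61 and 15.53 to 14.24, 14.4 and 14.13 (-1.31 ± 0.16). Haem synthesis was represented by ppox, protoporphyrinogen oxidase (-1.63 ± 0.25), and by the mitochondrial carriers slc25a38a (-1.5 ± 0.3) and slc25a37, an iron importer (-1.08 ± 0.2). The receptor epor (-1.14) and its ligand epoa (-0.8) fell as well. The alpha globins hbae3 (0.16), hbaa2 (-0.03) and hbae4 (-0.49) were not called. Without the third array of 24 hpf or the second of 48 hpf 1 member was higher.

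Cartilage, bone and matrix genes held both directions, with 6 of 20 higher (30.0%, beside 19% of named genes) and 4 lower (20.0%, beside 22.8%). Their median change was 0.33. Matn3a rose from 9.38, 9.36 and 10.07 to 14.29, 14.33 and 14 (4.6 ± 0.24), far above the next, the metalloproteinase mmp23bb (1.13 ± 0.26). Mmp30 fell from 13.91, 13.98 and 14.09 to 11.75, 11.47 and 12.23 (-2.17 ± 0.22), and lama1, a laminin chain of the early basement membrane, from 12.75, 12.18 and 10.84 to 10.06, 9.99 and 10.28 (-1.82 ± 0.44). Without the second array of 24 hpf 2 members were higher, and 3 without the first of 24 hpf or the first or second of 48 hpf; 2 were lower without the first of 48 hpf. Both measured collagens, col27a1b (0.85 ± 0.19) and col19a1 (0.83 ± 0.25), were higher, the latter not without the second array of 24 hpf or the second or the third of 48 hpf.

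In the ear, oc90 fell from 11.98, 12.01 and 11.66 to 8.7, 8.74 and 8.62, a 9.17-fold decrease, while 4 of 9 genes rose. Tectb, a tectorin of the membrane over the hair cells, rose from 9.87, 9.56 and 10.07 to 11.45, 11.18 and 11.9 (1.68 ± 0.24), and stm, starmaker of the otolith, by 0.8 ± 0.16. Otolith matrix genes therefore moved in opposite directions. In the epidermis and claudin list 2 of 11 were higher (18.2%, beside 19% of named genes) and 1 lower (9.09%, beside 22.8%). Cldn7a rose from 8.07, 7.93 and 8.45 to 11.56, 11.25 and 11.93 (3.43 ± 0.23) and cldn15lb by 1.93 ± 0.2. In contrast, cldn5a fell from 12.01, 12.07 and 11.54 to 9.78, 9.71 and 10.15. A second fall was called without the third array of 24 hpf or the second of 48 hpf. Of 15 cilia genes 4 were lower (26.7%, beside 22.8% of named genes) and none higher, with a median of -0.42. Those that fell included odad3, a docking factor of outer dynein arms (-1.44 ± 0.18), dnaaf11 (-1.19 ± 0.22) and the regulator foxj1a (-1.16 ± 0.26).

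Pigment cell genes were higher in 3 of 12 cases and lower in 1: pmela, a melanosome matrix protein measured by 3 probes, rose by 1.29 ± 0.28, tfap2e by 1.2 ± 0.28, and gart, an enzyme of purine synthesis, fell from 14.74, 14.29 and 14.54 to 13.09, 12.94 and 13.11 (-1.48 ± 0.18). Without the third array of 24 hpf 5 were higher. Liver and digestive genes were higher in 3 of 17 cases (17.6%, beside 19% of named genes) and lower in 4 (23.5%, beside 22.8%). Among them gc, the vitamin D-binding protein, rose by 1.44 ± 0.17. Tm6sf2a fell from 13.55, 13.59 and 13.71 to 11.26, 11.12 and 11.55 (-2.3 ± 0.18). Here 7 were higher without the third array of 24 hpf, and 1 was lower without the first of 48 hpf and 2 without the second. Complement and clotting genes were higher in 4 of 8 cases and lower in none, f9b by 0.89 ± 0.16 and c3a.2 by 1.22 ± 0.29, and in 2 cases without the second array of 24 hpf or the first of 48 hpf; 1 was lower without the third of 24 hpf.

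Genes of ionocytes and of ion transport in skin and kidney were higher in 2 of 8 cases, stc1l by 1.72 ± 0.3 and the ammonia channel rhcga by 1.12 ± 0.25. They were lower in 1, the calcium channel trpv6, whose call was lost without the first or second array of 48 hpf. Without the second array of 24 hpf 2 were lower. White blood cell and immune genes were higher in 3 of 19 cases (15.8%, beside 19% of named genes) and lower in none. Those higher were il10, il12a and tlr2, by 0.66 to 0.95. No rise was called without the second array of 48 hpf. Without the first or second of 24 hpf 1 was, and 1 fall was called without the third array of either age. Blood vessel genes were lower in 4 of 8 cases (tmem88a, kdr, egfl7 and clec14a, by 0.53 to 1.22), and in 0 to 3 cases with single arrays left out: 0 without the first of 48 hpf, and 1 without the second or the third of 48 hpf or the first or second of 24 hpf; 1 was higher without the third of 24 hpf. Bhlha15, the only gene of the hatching gland list, was lower by 0.85 ± 0.2, though not without the first array of 48 hpf. In the cytoskeleton list 4 of 14 were higher (28.6%, beside 19% of named genes) and 2 lower (14.3%, beside 22.8%). Dync1i1b, a dynein chain, changed by 1.15 ± 0.18 and actr5, which acts in chromatin remodelling, by -1.07 ± 0.22. In this list 1 was lower without the first, the second or the third array of 24 hpf or the second or the third of 48 hpf.

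Of 15 heat-shock chaperones and their partners, 7 were lower and 1 higher (median -0.4), with bag3, a co-chaperone, down from 13.84, 13.83 and 13.77 to 12.71, 12.52 and 12.76 (-1.15 ± 0.16) and hspb7 by -1.12 ± 0.16. None of the 4 genes of the endoplasmic reticulum stress list was called: ddit3, a transcription factor of that response, had 12.15, 12.39 and 12.05 at 24 hpf and 12.78, 12.45 and 13.1 at 48 hpf (0.58 ± 0.21, adjusted p = 0.0606). A single member of the list was higher without the second array of 48 hpf, with median-centred arrays and with quantile normalization applied again. Apoptosis genes were higher in 1 of 8 cases (12.5%, beside 19% of named genes), bnip3 by 1.29 ± 0.18. They were lower in 3 (37.5%, beside 22.8%), with casp6a at -1.63 ± 0.22 and a list median of -0.63, against 0.55 in controls. Of 7 genes of metal transport, the zinc exporter slc30a1b fell from 11.21, 11.21 and 10.87 to 9.4, 9.31 and 9.32 (-1.75 ± 0.17). No other was called, so 14.3% were lower, beside 22.8% of named genes. Without the third array of 24 hpf 4 were lower.

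Oxidative stress and detoxification genes were higher in 4 of 19 cases and lower in 4 (median -0.28). Both shares, 21.1%, lay close to those over all named genes (19% and 22.8%). Msrb2, a methionine sulfoxide reductase that repairs oxidized proteins, rose from 12.2, 12.08 and 12.37 to 14.01, 14.27 and 13.97 (1.87 ± 0.17, adjusted p = 0.000366). In controls its change was -0.08 and under TMAT 0.98, and the MES change exceeded the control change by 1.95 ± 0.68 (adjusted p = 0.211). Sod3a, an extracellular superoxide dismutase, fell from 12.67, 12.75 and 12.76 to 11.31, 11.26 and 11.41 (-1.4 ± 0.15). The transcription factor mafga rose by 1.22 ± 0.16, the glutathione transferase gstp1.1 by 1.75 ± 0.29 and the efflux transporter abcg2a by 1.35 ± 0.21. Cholesterol genes were higher in 2 of 14 cases (14.3%, beside 19% of named genes) and lower in 5 (35.7%, beside 22.8%). Their median change was -0.16. The LDL receptor ldlra rose from 8.53, 8.5 and 8.66 to 10.48, 10.74 and 10.21 (1.92 ± 0.19), whereas the isoprenoid enzyme idi1 (-1.21 ± 0.19) and the sterol enzyme ebp (-0.98 ± 0.17) fell. Lower members numbered 3 without the first or second array of either age. The clock list had 1 call in 5 (20.0% higher, beside 19% of named genes). This was rorb, a nuclear receptor also active in the retina, up by 2.49 ± 0.23. Without the third array of 24 hpf 2 members were lower.

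Solute carriers were higher in 14 of 64 cases and lower in 14, close to the shares over all named genes (19% and 22.8%). The neuronal transporters slc32a1, slc6a5 and slc1a1 (1.75 ± 0.17) were among those that rose, and slc14a2, a urea transporter, fell from 10.91, 10.93 and 10.86 to 8.86, 9.27 and 9.24 (-1.78 ± 0.18). Without the second array of 24 hpf or the first of 48 hpf 9 were higher, and without the third of 24 hpf 22 were lower.

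**Figure D2:**
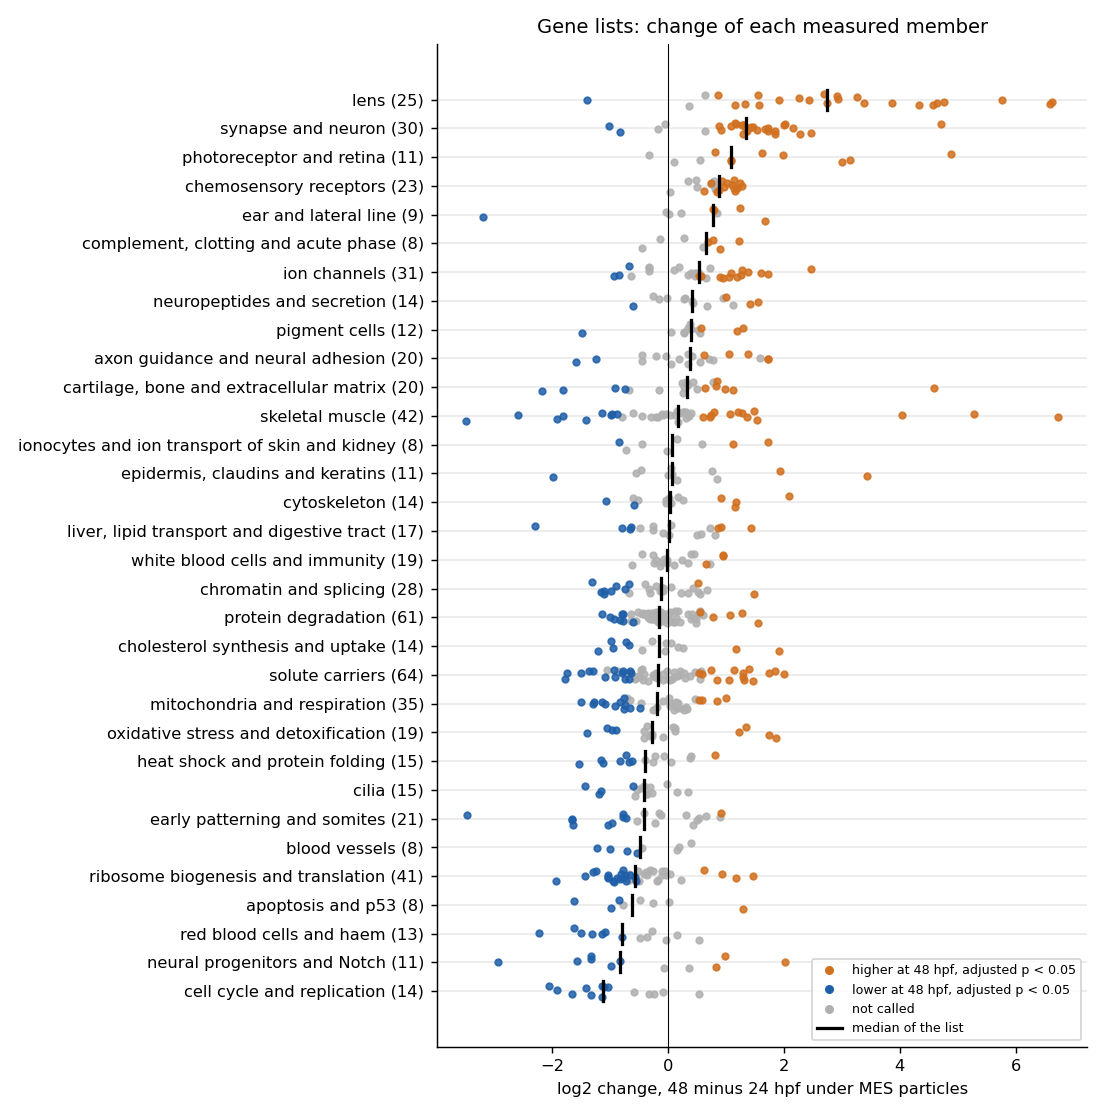
Log2 change from 24 to 48 hpf under MES particles (horizontal axis) of every measured member of the 32 gene lists with at least 8 members, ordered by the list's median (black bar); colours give the call at an adjusted p under 0.05 and numbers in brackets the measured genes. Lens (median 2.74), synapse (1.35) and photoreceptor (1.09) genes lie to the right and cell cycle genes (-1.12) to the left.

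Chemosensory receptors, the odorant and taste receptors of sensory neurons and taste cells, were higher in 15 of 23 cases and lower in none, and the change was positive in all 23 (median 0.88, range 0.04 to 1.27). The odorant receptor or30bu1 had 7.89, 7.72 and 7.72 at 24 hpf and 8.82, 9.21 and 8.73 at 48 hpf (1.14 ± 0.19, adjusted p = 0.0029). The taste receptors tas1r2.1 and tas1r3 went from 8.2, 8.33 and 8.46 to 9.23, 9.72 and 9.38 (1.11 ± 0.19) and from 7.61, 7.24 and 7.22 to 8.05, 8.49 and 8.07 (0.85 ± 0.2). All these values are low, and 18 of the 23 genes had a mean level under 9. The same 23 features had a median change of 0.01 in controls and 0.14 under TMAT; or30bu1 differed by -0.15 in controls and 0.03 under TMAT. The difference between the MES and control changes of or30bu1 was 1.3 ± 0.38 with an adjusted p of 0.193.

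The change under MES varied with the level of a feature. Among the 4357 features with a mean log2 level under 8 the median change was 0.11, the same as in controls, with 11.9% called higher and 5.76% lower; the 7 chemosensory receptors in that class had a median of 0.5. Among the 4000 features with a mean log2 level from 8 to 9 the median change was 0.38 and 30.1% were called higher, against 12.4% called lower; from 11 to 12 the median was -0.25, with 21.0% higher and 28.5% lower. In controls the medians of these 2 classes were 0.07 and -0.1 and under TMAT 0.11 and -0.13. The random probes, at a lower level still, read less at 48 than at 24 hpf. The 11 chemosensory receptors in the class from 8 to 9 had a median change of 0.96. The part of the level, of single arrays and of processing in the receptors' result was not tested further. Without the second array of either age 7 of the 23 were called, and 9 without the first of 24 hpf. With quantile normalization applied again 8 were called, and 9 with all 18 arrays in the fit. The highest count of any alternative was 17.

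**Figure D3:**
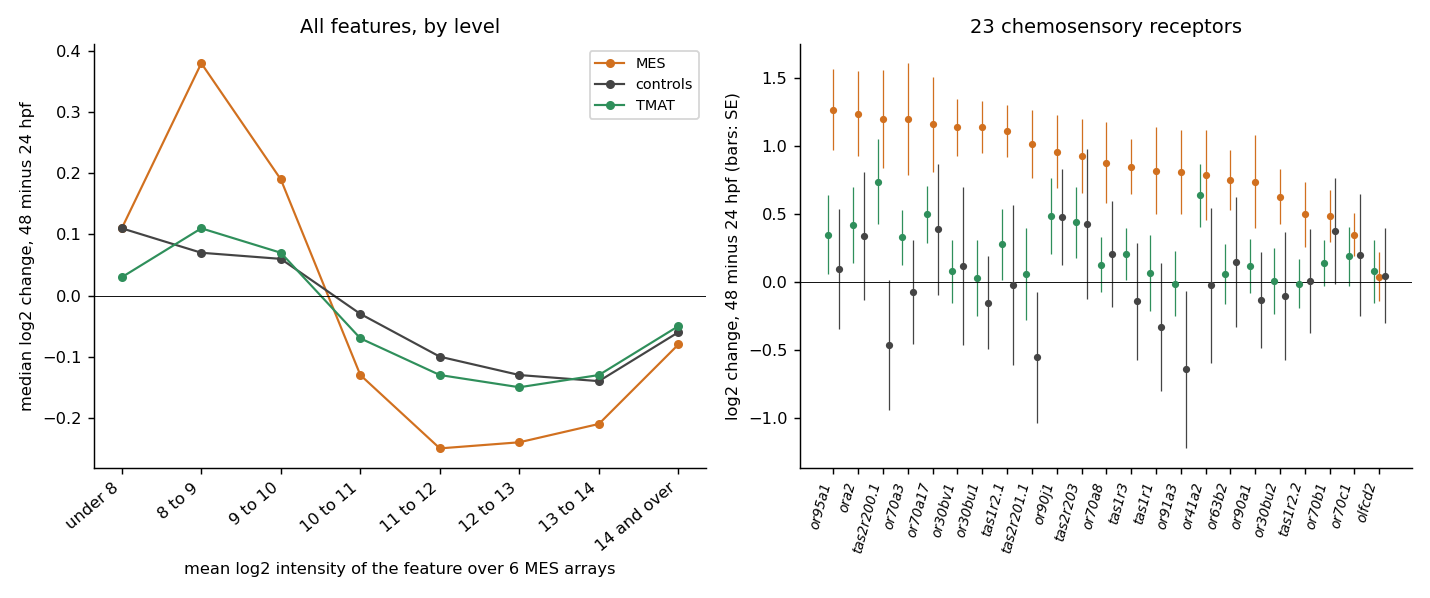
Left, median log2 change from 24 to 48 hpf of all features, grouped by their mean log2 intensity over the 6 MES arrays, in MES, control and TMAT embryos; right, the change of each of 23 chemosensory receptors in the same 3 sets (points, with standard errors from 3 and 3 arrays). Under MES the median is 0.38 in the class from 8 to 9 and -0.25 from 11 to 12, and the receptors' MES points lie between 0.04 and 1.27.

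The change over this day was then set beside that in the controls and under TMAT, each fitted on its own 6 arrays, none of which it shares with MES. With the same threshold 2665 features (7.18%) were called in controls and 6359 (17.1%) under TMAT. The median standard error of a change was 0.215 under MES, 0.411 in controls and 0.25 under TMAT, so the counts do not compare the extent of change. Of the 2665 features called in controls, 2187 were also called under MES (82.1% of the control calls and 14% of the MES calls), 2182 of them in the same direction. Of the TMAT calls 5960 were shared (93.7% of those and 38.3% of the MES calls), all in the same direction. Across features, which are not independent, the change under MES correlated with that in controls at r = 0.56 and with that under TMAT at r = 0.91.

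Whether the change itself differed from that in controls was tested as a difference of differences over all 18 arrays. A single feature was called (0.0027%), lower under MES, with an identifier that leads to no gene symbol. At an unadjusted p under 0.05 there were 5960 features, where 1855 are expected by chance, though features are not independent. With single arrays left out that number ran from 3632 (without the second MES array of 48 hpf) to 9158 (without the second control array of 24 hpf). The count of called features depended on single control arrays: 1800 features were called without the second control array of 24 hpf and 929 without the third control array of 48 hpf, and none without any other single array of the MES and control groups. The median standard error of such a difference was 0.463.

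Among named genes the smallest adjusted p of this test was 0.193, and the following are values without a call; over the alternatives the adjusted p of these 12 genes ran from 0.0187 to 0.498, and each was under 0.05 in 1 or 2 of 20. Of the 6 genes whose MES change exceeded the control change with the smallest p, crygm2d4 showed the widest gap, 3.25 ± 0.91 log2 units: its control values were 9.33, 7.7 and 7.86 at 24 hpf and 11.37, 10.03 and 13.65 at 48 hpf, so that the highest control array lay just under the lowest MES array (13.81) and the others well under it. The highest 24 hpf control value and the lowest of 48 hpf came from control arrays that stood apart by different measures. These were the first of 24 hpf (mean correlation within its group 0.885, random probes at 99.5) and the second of 48 hpf (random probes at 168.6). Random probes read next highest, 126.3, in the second control array of 24 hpf. Without the first of 24 hpf and the second of 48 hpf, an alternative chosen after seeing the data, the gap of crygm2d4 was 1.9 (adjusted p = 0.487 in limma) and that of cyp2k17 0.96. The adjusted p of crygm2d4 in limma was 0.0478 without the second control array of 24 hpf and 0.0187 without the third of 48 hpf. The 5 other genes were elnb, an elastin (1.51 ± 0.34), lgals3bp.3 (1.57 ± 0.38), zp2.3, a zona pellucida protein of the egg coat (1.53 ± 0.39), cyp2k17 (1.61 ± 0.45) and gtf2a1l (1.43 ± 0.41). For elnb the control values were 9.38, 9.21 and 8.47 and then 8.32, 8.58 and 8.16, against 7.92, 8.12 and 8.36 and then 8.74, 9.31 and 8.86 under MES, where it rose by 0.84 ± 0.21. All 3 egg coat genes showed this pattern: under MES zp2.3 changed by 0.39, zp3.2 by 0.41 and zp2.2 by -0.02, none with a call, while the control changes were -1.14, -1.49 and -1.43. Their TMAT changes were -0.85, -0.81 and -0.91. For the other genes the changes under TMAT were 6.29 for crygm2d4, 0.35 for elnb, 0.73 for lgals3bp.3, 0.31 for cyp2k17 and 0.25 for gtf2a1l.

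In the opposite direction vgll2a stood apart, with an MES change lower than the control change by 2.37 ± 0.48. Under MES its values went from 9.4, 9.21 and 8.72 to 7.27, 6.6 and 8.0, and in controls from 7.95, 8.45 and 8.26 to 8.8, 8.88 and 8.63. Adcyap1r1a, the receptor of the neuropeptide PACAP, had 8.6, 9.01 and 8.25 and then 9.51, 9.13 and 10.25 under MES, against 8.45, 8.89 and 8.55 and then 11.96, 12.16 and 11.16 in controls (difference -2.12 ± 0.46). At 48 hpf no MES value of this gene reached the lowest control value. The named genes of this test, in both directions, were picked by their p in it, so separation of their values is no separate support. Neuronal genes called higher in both sets, with the smaller value under MES, were ptprdb, a receptor phosphatase of synapse formation (0.66 against 2.52 in controls), nrxn3b (2.28 against 3.7) and tmem266 (0.74 against 2.05). The last of the 6 was ints2, a subunit of the Integrator complex (difference -1.9 ± 0.49). Under TMAT the changes were -1.41 for vgll2a, 1.31 for adcyap1r1a, 1.09 for ptprdb, 2.45 for nrxn3b, 1.21 for tmem266 and -0.41 for ints2.

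Some lists had medians that lay apart in the 2 sets of arrays. Control changes carried a median standard error of 0.411, against 0.215 under MES, and these lists held 3 to 20 measured genes. Axon guidance genes changed by a median of 0.38 under MES and 1.58 in controls, clock genes by 0.32 and 1.62, and metal transport genes by -0.16 and 0.81, with TMAT medians of 0.35, 0.36 and -0.16. Neural progenitor genes had medians of -0.83 and 0.34, apoptosis genes of -0.63 and 0.55, and heart and smooth muscle genes of -0.05 and 1.07. The TMAT medians of these 3 lists were -0.54, -0.34 and 0.03. The egg coat genes lay apart in the other direction (0.39 and -1.43), with a TMAT median of -0.85. No gene of these lists was called in the test of the difference. Lens genes had medians of 2.74 under MES, 2.29 in controls and 2.6 under TMAT, and cell cycle genes of -1.12, -0.51 and -1.2.

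**Figure D4:**
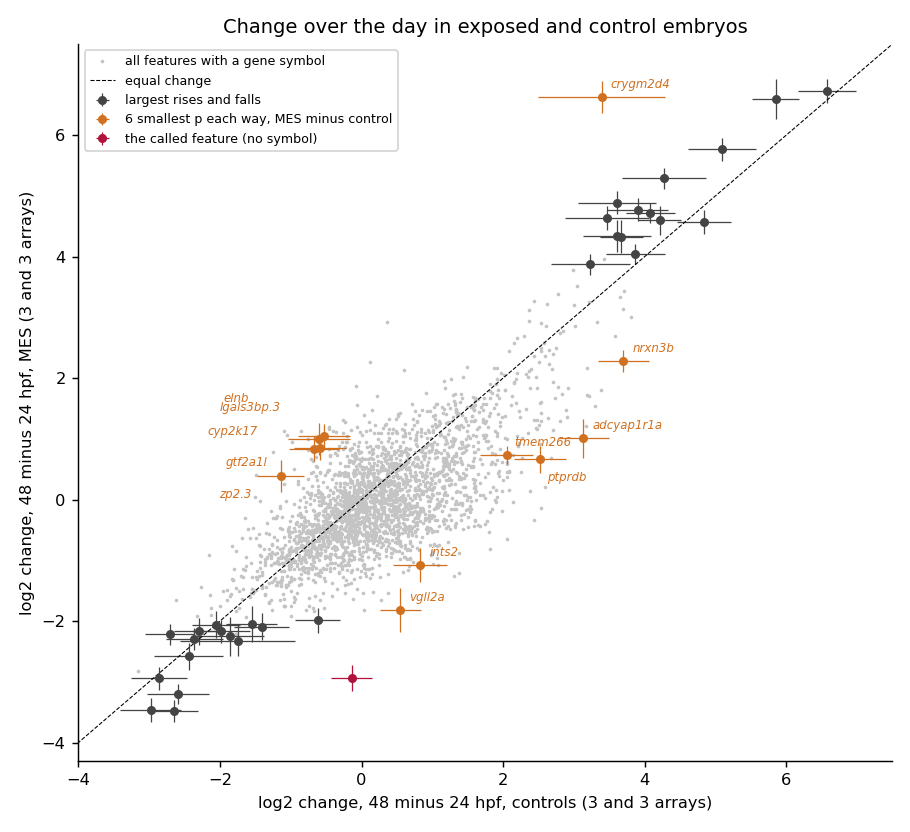
Log2 change from 24 to 48 hpf in controls (horizontal) and under MES particles (vertical) for all features with a gene symbol (grey), the 30 largest rises and falls (dark, except crygm2d4), the 12 genes with the smallest p in the test of the difference (orange, named) and the single called feature (red); bars are standard errors. The dashed line marks an equal change, from which crygm2d4 lies 3.25 above and vgll2a 2.37 below.

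Between MES and TMAT particles, where ligand and dose differ together, no feature was called for a different change over the day (0.0%), and 245 had an unadjusted p under 0.05 in limma, fewer than the 1855 that chance alone would give. All 18 arrays shared the spread here, with a median standard error of 0.463; in the fit on the 12 arrays of both agents alone it was 0.339, and 1415 features had an unadjusted p under 0.05, with 0 called. Every adjusted p was 1 in the fit on all 18. By smallest p, the named genes with the higher change under MES were zp2.3 (1.24 ± 0.39), zp3.2 (1.22 ± 0.55), or30bu1 (1.11 ± 0.38) and b3gnt2a (1.02 ± 0.42), followed by zp2.2 (0.89 ± 0.4) and chrna4b, measured by a single probe (0.72 ± 0.34). Those with the lower change were gad3 (-1.26 ± 0.41), trpv6 (-0.97 ± 0.36), cldn5a (-0.92 ± 0.39), sema6d (-0.86 ± 0.36), slc43a3b (-0.67 ± 0.36) and boka (-0.57 ± 0.27). For trpv6 the MES values went from 11.53, 11.5 and 12.05 to 10.79, 10.72 and 11.06, while the TMAT change was 0.13 and the control change -1.0. For gad3 the MES change was -0.82, against 0.44 under TMAT and 0.35 in controls.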

How the data were processed

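Each pool of whole embryos was hybridised to a 1-colour NimbleGen array. The authors' deposited table of each array holds intensity values on a linear scale, and the submitters' processing notes name RMA, which corrects background, normalizes by quantiles and summarises probes; no version is stated there. The log2 of each intensity was taken here, with no pseudocount and no further normalization, and the feature of 3342 random probes was set aside. Features held 1 to 12 probes, with a median of 8. In a combined table, also deposited, 2 of 18 columns equal the array of the sample they are labelled with, so it was used only as an alternative. Symbols came from RefSeq identifiers through a current gene table.

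The 6 MES arrays were fitted with limma 3.58.1 in R 4.3.3 (lmFit and eBayes, two-sided), with Benjamini-Hochberg adjustment over 37105 features. Differences from the controls' and TMAT changes came from 1 fit of all 18 arrays. The fit was tested on simulated data, in which 17% of 100 features changed by 1 log2 unit and 65% of 100 changed by 2 were recovered. All others of the 37105 features were left unchanged there, while 42.0% were called in the real comparison. With so few changed features the adjusted threshold is stricter. These recoveries therefore do not give the sensitivity of the real comparison. Named genes were the 15 largest called rises and falls with an informative symbol (not a clone name), up to 5 genes per list by p (8 for lens, synapse, muscle and patterning) or the ends of a list's range, and 6 genes each way for differences; a few more list members are named for their role and were chosen after their values were seen. The 15 rises and 15 falls were taken only from features whose 3 and 3 values do not overlap. The members and the 41 lists were chosen with earlier results of these data known. Same-numbered pools did not deviate together (r from -0.160 to 0.036, against -0.162 to 0.269 for other-numbered pools). With 3 arrays per age this cannot tell whether same-numbered pools shared a clutch or batch. The replicate number was therefore left out of the main fit and used as a block in an alternative. The number of arrays limits the precision. Alternatives covered scaling, filters, pseudocount, spread, probes, samples and single arrays left out. Some list members are counted but not reported by name here.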

Additional observations from a re-analysis of the deposited data

Results flagged for a closer look

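The change over the day differed between MES and control embryos in 1 feature, OTTDART00000029927, by the test of the difference itself (-2.79 ± 0.37 log2 units, 95% confidence interval -3.58 to -2.0, limma adjusted p = 0.0487). Its log2 intensity under MES was 12.35, 12.74 and 12.56 at 24 hpf and 9.78, 9.26 and 9.8 at 48 hpf. In controls it was 11.75, 12.06 and 12.21 and then 11.95, 11.93 and 11.7, and under TMAT the change was -1.83. The ages do not overlap under MES, which held for 55.5% of all features, and overlap in controls. The feature was picked by this same difference, so the overlap is no separate support. No gene symbol is paired with this identifier in the tables used here. The adjusted p ran from 0.0157 to 0.287 over the 20 alternatives and stayed under 0.05 in 5 of them.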

How the results depend on the processing

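Of 173 called genes that the naming rule picks for the change under MES, 138 kept their call in every alternative run for them. There were 14 alternatives, of which the filter on features of fewer than 4 probes covered 170 genes and not exosc4, among the 30 largest. Whichever array was left out, 147 kept their call. None reversed, and the 30 largest rises and falls lost none. These genes were picked from the main fit by small p or large change, and the alternatives reuse its arrays. Their kept calls therefore follow largely from the selection. The number of features called was 9629 (4969 higher, 4660 lower) with all 18 arrays in the fit, where the more variable control arrays enter the spread, and 0 in each direction with the combined table as labelled (832 at an unadjusted p under 0.05). Leaving out single arrays gave 10678 to 17887 features, and 5082 to 9417 lower ones. With the replicate number as a block 12901 features were called under MES, and 0 for the difference from controls.

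The single feature of the difference from controls (1 lower, 0 higher) was not called (0) with median-centred arrays, limma-trend, the 12 arrays of both agents alone, or without the first control array of 24 hpf and the second of 48 hpf together, an alternative chosen after seeing the data. Single arrays left out gave 0 to 1800 features, 0 to 1547 higher and 0 to 416 lower. The cause of these shifts was not tested. The difference from TMAT gave 0 in all alternatives. Dim features near the random probes and features near the top of the scale limit what a fold change can show.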
